A study of Mus musculus with 18 samples.

Results

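The genes studied here are the 64 rows of the count tables named as Eph receptors and ephrins, semaphorins with their plexin and neuropilin receptors, Slit ligands with their Robo receptors, and the Unc5 netrin receptors. They were chosen by gene symbol alone, from the 24100 genes listed. RNA was measured in C3H/10T1/2 cells, a mouse line of mesenchymal progenitor cells (MPCs), in 9 polyA-selected and 9 rRNA-depleted libraries. Each kind holds 3 libraries of *Atrx* WT cells, which received an empty Cas9 vector, 3 of the *Atrx* knockout clone sg5 (G7) and 3 of the *Atrx* knockout clone sg6 (B10), and each clone was picked from cells given 1 guide RNA against *Atrx*. A group is therefore 1 line with 3 libraries of a kind, and what *Atrx* loss changed cannot be told apart from what else differs between the lines. Nothing states that the 3 libraries came from separate cultures, so p-values measure the spread between libraries, which may be technical.

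Eph receptors are receptor tyrosine kinases of the cell surface, and their ephrin ligands are held in the membrane of the neighbouring cell, so that both cells receive a signal on contact. Ephrin-A ligands are anchored by a lipid and ephrin-B ligands span the membrane. Semaphorins are secreted or membrane-bound ligands that act through plexins, in class 3 mostly with a neuropilin as co-receptor, while secreted Slit proteins act through Robo receptors and netrins through Unc5 receptors among others. These families were first described in axon guidance, and they also steer vessel growth, cell sorting at tissue borders and the behaviour of mesenchymal and bone-forming cells.

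Library totals ran from 27544833 to 235346363 counts in the polyA libraries, with every sg5 library above every other library, and from 20135336 to 33187136 in the rRNA-depleted libraries. *Atrx* itself served as a check of the labels. In counts scaled to a common library size (CPM), the WT polyA libraries held 276 to 328 of it, whereas sg5 held 114 to 138 and sg6 122 to 141, so both clones lay below WT. All 14 mesenchymal markers were counted in every group, though *Nt5e* averaged at most 0.230 CPM in the polyA groups. Of 10 haematopoietic markers, the summed level was at most 7.05 CPM in any polyA library, and of 10 endothelial markers at most 37.2 CPM, with *Cldn5* at 0. Some of these markers moved with the lines in the polyA libraries. *Tek* averaged 0.962 CPM for WT, 11.5 for sg5 and 9.33 for sg6 and rose in both clones, while *Erg* averaged 25.8, 10.7 and 5.71 CPM and fell in both. *Eng* rose in both clones, at 19.8, 89.1 and 65.7 CPM, and *Thy1* averaged 0.997, 0.307 and 134 CPM, falling in sg5 and rising in sg6. *Ly6a* rose in sg6, while *Pecam1* fell in both clones, *Vwf* in sg6 and *Csf1r* in sg5. The last 3 averaged at most 2.78 CPM in WT. With rRNA depletion *Tek* rose in sg5 alone, *Erg* fell in sg6 alone, *Eng* rose in both clones and *Thy1* rose in sg6. Their part in the changes of the guidance genes was not tested.

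In WT cells the families were unevenly used. To compare genes, CPM was divided by the length of each gene's merged exons in kb (CPM per kb). In WT polyA libraries, 32 of the 64 genes had a mean level of at least 1 CPM per kb, 15 lay between 0.1 and 1, and 17 were under 0.1. The highest was *Plxnb2*, a plexin that binds class 4 semaphorins, at 57.9 ± 2.03 CPM per kb (SD, n = 3). Next came *Nrp2*, a co-receptor of class 3 semaphorins, at 35.0 ± 0.930 and *Ephb4*, the receptor of ephrin-B2, at 27.8 ± 3.45 CPM per kb. The libraries of these 3 genes did not overlap with those of the next gene down in the order. Further down, 54 of the 60 pairs of neighbours overlapped, so most single ranks are not separated beyond the spread between libraries. Of the 3 Slit genes, *Slit2* stood at 2.78 ± 0.851 CPM per kb in WT, while *Slit1* and *Slit3* were under 0.1, and *Robo3* and *Robo4* had at most 4 counts in any polyA library.

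**Figure D1:**
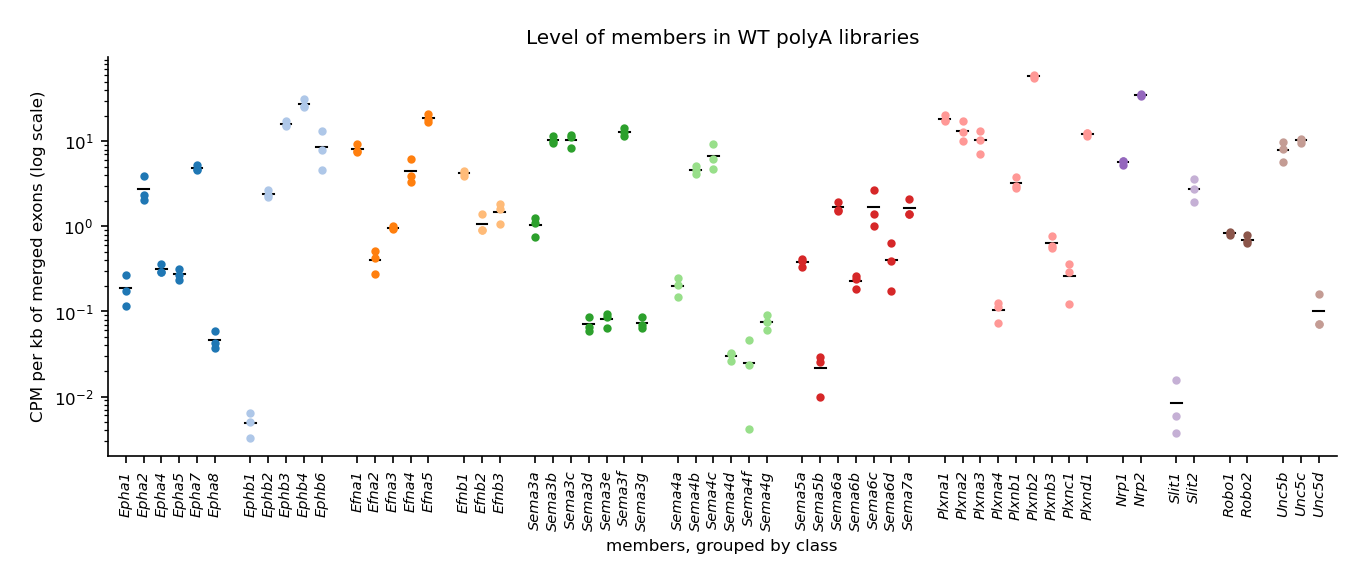
Level of each gene in the 3 WT polyA libraries, in CPM per kb of merged exons on a log scale, grouped by family; points are libraries and bars their means. The 57 genes with a count in every one of these libraries are shown, and *Plxnb2* stands highest at 57.9 CPM per kb.

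Genes were tested on counts with edgeR's quasi-likelihood test over all features of a table, and a gene is said to have risen or fallen where its Benjamini-Hochberg adjusted p was below 0.05 and its log2 fold change beyond 1. Of the 64 genes, 55 had enough counts to be tested in the polyA libraries and 45 in the rRNA-depleted libraries. The 9 not tested in either kind were *Epha3*, *Epha6*, *Epha10*, *Ephb1*, *Robo3*, *Robo4*, *Slit1*, *Slit3* and *Unc5a*, with at most 19 counts in any polyA library. In these bulk samples, fewer cells of a type and less RNA per cell cannot be told apart.

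In the polyA libraries, 8 of the 55 genes rose in sg5 against WT (14.5%, beside 3.18% of all 15480 genes tested) and 9 fell (16.4%, beside 6.96%). In sg6, 5 rose (9.09%, beside 3.64% of all genes) and 11 fell (20.0%, beside 7.54%). The same WT libraries enter both comparisons, so a gene that passed in both clones was not found by 2 independent tests. *Efna2*, *Efnb2* and *Sema3e* rose in both clones, 3 genes of 55 (5.45%, beside 2.18% of all genes). *Ephb6*, *Plxnc1*, *Robo1*, *Robo2*, *Sema4a*, *Sema6a*, *Sema6b*, *Sema6d* and *Sema7a* fell in both, 9 of 55 (16.4%, beside 5.48%). Directly between sg5 and sg6, 5 genes differed (9.09%, beside 2.61%). The median log2 fold change of the 55 genes was −0.04 in sg5 and −0.10 in sg6, beside −0.00237 and −0.00608 for all genes, with 26 values above 0 and 29 below in each clone.

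In the rRNA-depleted libraries, 6 of the 45 genes tested rose in sg5 (13.3%, beside 3.04% of 13303 genes tested) and 6 fell (13.3%, beside 4.31%). In sg6, 4 rose (8.89%, beside 2.16%) and 6 fell (13.3%, beside 3.59%). *Plxnb1* and *Sema3e* rose in both clones (4.44%, beside 1.36%), and *Robo1*, *Robo2* and *Sema6a* fell in both (6.67%, beside 2.62%). Between the clones, *Efnb1* and *Epha4* differed (4.44%, beside 1.48%). Over both kinds of library, 22 of the 64 genes rose or fell in at least 1 comparison with WT and 42 in none.

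**Figure D2:**
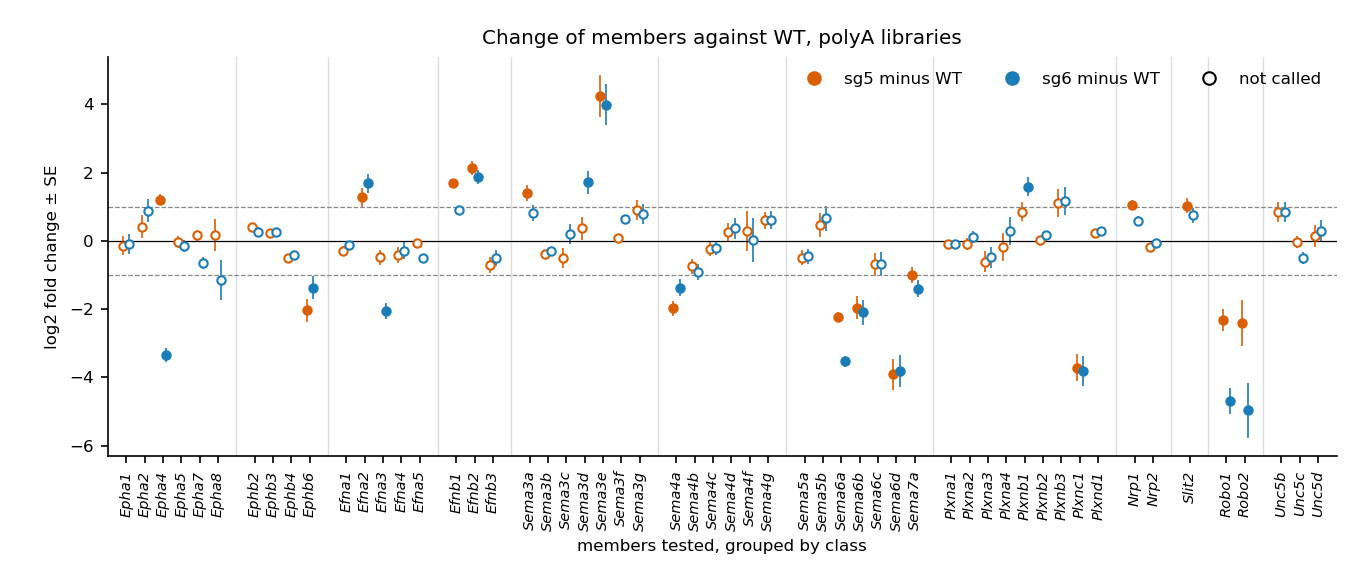
Log2 fold change of each of the 55 genes tested in the polyA libraries, sg5 minus WT in orange and sg6 minus WT in blue, with bars of 1 SE; filled points passed the test, and dashed lines mark a log2 fold change of 1. *Sema3e* lies highest in both clones, *Robo1* and *Robo2* lowest in sg6, and *Epha4* is the 1 gene with filled points on both sides of 0.

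Both Robo receptors that WT cells used fell in both clones. Robo receptors bind Slit ligands and turn migrating cells and axons away from them. In the polyA libraries *Robo1* stood at 14.4, 13.1 and 13.8 CPM in WT, at 4.46, 1.81 and 2.03 in sg5 and at 0.651, 0.434 and 0.515 in sg6. The 3 lines did not overlap, with WT highest and sg6 lowest. For *Robo1* the log2 fold change was −2.31 in sg5 (SE 0.32, edgeR adjusted p = 0.000942) and −4.68 in sg6 (SE 0.38, adjusted p = 3.9e-05). The clones differed from each other by 2.37 on the log2 scale (SE 0.36, adjusted p = 0.00532).

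*Robo2*, the paralogous receptor, stood at 11.3, 10.9 and 13.5 CPM in WT, at 5.10, 0.868 and 0.734 in sg5 and at 0.547, 0.225 and 0.355 in sg6. Here 1 sg5 library lay well above the other two, though below every WT library. Its log2 fold change was −4.97 in sg6 (SE 0.80, adjusted p = 0.00172) and −2.41 in sg5 (SE 0.67, adjusted p = 0.0266). The sg5 call was lost without WT library 2 or 3 or without sg5 library 2 or 3, where the log2 fold change was −2.48 to −2.00 and the adjusted p 0.0568 to 0.0752. Without sg5 library 1, the high one, it was −3.89 (adjusted p = 0.000112). The clones did not pass the direct test for *Robo2* by edgeR (adjusted p = 0.108). By DESeq2 they did, at a log2 value of 2.58 for sg5 minus sg6 (adjusted p = 0.0183).

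The rRNA-depleted libraries held few Robo reads in the clones. *Robo1* had 98, 88 and 121 counts in WT, 4, 4 and 0 in sg5, and 1, 1 and 0 in sg6. Over the summed counts scaled for library size, WT was 31.2-fold above sg5 (exact 95% interval for counting error 15.6 to 72.9) and 130.3-fold above sg6 (35.8 to 1080.4). *Robo2* had 115, 39 and 95 counts in WT, 10, 3 and 1 in sg5, and 5, 0 and 1 in sg6. Both genes passed the test in both clones, with edgeR adjusted p from 7.06e-05 to 0.00598. The fitted log2 values at these counts depended on single libraries. For *Robo1* in sg5 the value was −4.90, and −4.25 without sg5 library 3. For *Robo2* it was −3.89 in sg5, and −3.27 without WT library 1 or −4.92 without sg5 library 1. In sg6 *Robo2* gave −5.10, and −4.49 without WT library 1, −6.90 without sg6 library 1 or −4.47 without sg6 library 2.

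*Robo1* and *Robo2* are neighbours on chromosome 16 of GRCm38, with *Robo1* on the plus strand from 72308306 to 73046095, *Robo2* on the minus strand from 73891839 to 74411825, and 846 kb between their 3′ ends. Only 2 genes tested in the polyA libraries lay within 1 Mb of *Robo1*, and 1 of them, *Robo2*, fell in both clones. Within 1 Mb of *Robo2*, 2 of 5 tested genes fell in both clones, *Robo1* and *Rbm11*. The spans given are those of GENCODE, while neighbours were counted on RefSeq coordinates, in which *Robo2* has starts beyond its span given here. Since both receptors were low together, the 250 bases before their starts are shown, taken from RefSeq on GRCm38.p6, each read 5′ to 3′ on the gene's strand with every CG in capitals. The *Robo1* stretch, before a start inside the annotated gene, is chr16:72662899-72663148, and the *Robo2* stretch, 1 of 3 starts listed for it, is chr16:74411826-74412075.
Robo1: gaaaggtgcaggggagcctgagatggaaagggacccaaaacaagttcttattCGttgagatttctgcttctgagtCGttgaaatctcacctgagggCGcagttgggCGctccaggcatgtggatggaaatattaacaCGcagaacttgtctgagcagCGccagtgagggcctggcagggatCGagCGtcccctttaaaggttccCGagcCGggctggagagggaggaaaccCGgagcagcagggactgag
Robo2: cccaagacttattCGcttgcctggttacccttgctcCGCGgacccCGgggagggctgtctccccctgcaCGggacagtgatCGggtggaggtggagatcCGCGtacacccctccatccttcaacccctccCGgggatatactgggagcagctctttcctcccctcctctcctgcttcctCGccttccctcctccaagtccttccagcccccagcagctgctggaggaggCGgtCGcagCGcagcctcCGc
The *Robo1* stretch holds 11 CG and is 56% G and C, and that of *Robo2* holds 14 CG and is 65.6% G and C. The *Robo2* stretches not printed, chr16:75092771-75093020 and chr16:75447294-75447543, hold fewer, at 4 and 8 CG and 44.8% and 53.2% G and C. The median over the 32851 promoters of 27025 genes in the same reference was 6 CG and 52.4%. Neither printed stretch holds a TATA box, searched as TATAAA, on either strand. The GC box, searched as GGGCGG, and the E-box, searched as CACGTG, were not found in them either. The *Robo2* stretch chr16:75447294-75447543 does hold CACGTG.

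*Slit2* was the 1 Slit ligand with enough counts to be tested. It stood at 92.9, 69.2 and 49.7 CPM in WT polyA libraries, at 124, 171 and 138 in sg5 and at 130.4, 129 and 95.7 in sg6. Both clones lay above WT, and the gene rose in sg5 (log2 fold change 1.03, SE 0.22, edgeR adjusted p = 0.00891), though not without WT library 3 or sg5 library 2, where the log2 value was 0.83 to 0.89. In sg6 the log2 value was 0.75 (SE 0.22, adjusted p = 0.0319), short of the fold threshold. The rRNA-depleted libraries of the 3 lines overlapped, with log2 values of 0.16 and 0.10 (SE 0.40 each). The ligand was thus counted at 95.7 CPM or more in every polyA library of the clones, in which its receptors *Robo1* and *Robo2* were low.

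Among Eph receptors, *Epha4* moved in opposite directions in the clones. It binds ephrins of both classes. Its polyA values were 2.90, 2.37 and 2.31 CPM in WT, 5.76, 6.45 and 5.19 in sg5, and 0.252, 0.289 and 0.195 in sg6. It rose in sg5 (log2 fold change 1.21, SE 0.17, edgeR adjusted p = 0.000988), fell in sg6 (log2 fold change −3.34, SE 0.21, adjusted p = 8.93e-06), and the clones differed 23.4-fold (adjusted p = 5.69e-06). The rRNA-depleted libraries gave the same order, at 4.07, 3.47 and 2.20 CPM in WT, 11.5, 10.4 and 9.35 in sg5, and 0.172, 0.261 and 0.175 in sg6. There the log2 fold change was 1.69 in sg5 (SE 0.26, adjusted p = 0.00199) and −3.95 in sg6 (SE 0.35, adjusted p = 2.36e-05). Of all genes tested, 17 of 15480 (0.110%) in the polyA libraries and 4 of 13303 (0.0301%) in the rRNA-depleted libraries passed in opposite directions in the clones.

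*Epha4* lies on the minus strand of chromosome 1 from 77367185 to 77515088, and none of the 3 tested genes within 1 Mb passed in both clones. The 250 bases before its start, chr1:77515089-77515338, are shown because no other gene of the families passed in opposite directions in the clones.
Epha4: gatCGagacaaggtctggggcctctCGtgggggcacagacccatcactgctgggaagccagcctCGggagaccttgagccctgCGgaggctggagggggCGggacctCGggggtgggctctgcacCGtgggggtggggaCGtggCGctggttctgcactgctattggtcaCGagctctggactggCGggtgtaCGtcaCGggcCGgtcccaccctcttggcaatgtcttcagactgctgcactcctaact
They hold 14 CG, are 66% G and C and contain GGGCGG, but neither TATAAA nor CACGTG.

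*Ephb6*, an Eph receptor without kinase activity, fell. It stood at 17.4, 29.7 and 49.7 CPM in WT polyA libraries, at 8.85, 6.57 and 8.21 in sg5 and at 9.66, 13.1 and 14.8 in sg6. Every clone library lay below every WT library, and the WT libraries themselves spread widely. The log2 fold change was −2.04 in sg5 (SE 0.34, edgeR adjusted p = 0.00236) and −1.37 in sg6 (SE 0.33, adjusted p = 0.0130). The sg6 call was lost without WT library 3, the highest, where the log2 value was −0.92 (adjusted p = 0.027). With rRNA depletion *Ephb6* fell in sg5 (log2 fold change −1.85, SE 0.33, adjusted p = 0.00539), and in sg6 the value was −1.15 (SE 0.32, adjusted p = 0.0868), which passed without sg5 library 1 or sg6 library 1 (log2 −1.1 and −1.45) and when the replicate number was a block (−1.2, adjusted p = 0.0359). By DESeq2 the rRNA-depleted value of *Ephb6* in sg6, −1.09, passed too (adjusted p = 0.0326). The other 8 Eph receptors tested in the polyA libraries passed in neither clone, with log2 values from −1.15 (*Epha8* in sg6) to 0.88 (*Epha2* in sg6). *Ephb4*, the most abundant in WT, changed by −0.49 and −0.42. Leaving out 1 library added calls for 4 of these receptors. *Epha2* passed in sg6 without WT library 1 or sg6 library 3 (log2 1.19 and 1.17), and *Epha8* without sg6 library 2 (−2.00). *Epha7* differed between the clones without sg6 library 3 (1.01), and *Ephb2* passed in sg5 in the rRNA-depleted libraries without sg5 library 1 (1.15).

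Among their ligands, 2 of the 3 ephrin-B genes rose. *Efnb2*, whose product binds EphB4, stood at 9.61, 6.20 and 6.29 CPM in WT, at 37.5, 30.5 and 27.3 in sg5 and at 31.2, 25.1 and 23.1 in sg6 in the polyA libraries. Both clones were far above WT and overlapped with each other. For *Efnb2* the log2 fold change was 2.12 in sg5 (SE 0.20, edgeR adjusted p = 0.000121) and 1.86 in sg6 (SE 0.20, adjusted p = 0.00021). In the rRNA-depleted libraries the log2 values were 1.57 (SE 0.49) and 1.17 (SE 0.49), the libraries overlapped with WT, and neither clone passed (adjusted p = 0.108 and 0.329). When the replicate number was a block, sg6 passed (log2 1.21, adjusted p = 0.0122). Without sg5 library 1 the sg5 value was 1.97 and passed (adjusted p = 0.013). By DESeq2 on all libraries the sg5 value, 1.63, passed too (adjusted p = 0.0177).

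*Efnb1*, an X-linked gene whose loss disturbs skeletal and facial development, rose in sg5 in both kinds of library. Its polyA values were 13.6, 14.7 and 15.6 CPM in WT, 44.2, 49.2 and 49.0 in sg5, and 29.2, 28.5 and 25.2 in sg6. The 3 lines did not overlap, sg6 lying between WT and sg5. The log2 fold change was 1.70 in sg5 (SE 0.09, edgeR adjusted p = 5.39e-06) and 0.92 in sg6 (SE 0.09, adjusted p = 0.000136), the latter short of the fold threshold. After rRNA depletion it was 2.48 in sg5 (SE 0.33, adjusted p = 0.000613) and 0.76 in sg6 (SE 0.33, adjusted p = 0.346), and the clones differed by 1.72 (SE 0.32, adjusted p = 0.0289). That difference was lost without sg5 library 2 or without any 1 of the sg6 libraries, at log2 values of 1.30 to 1.82. *Efnb3* changed by −0.70 and −0.50 in the polyA libraries and passed in neither clone.

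Of the 5 ephrin-A ligands, which signal to EphA receptors, *Efna2* rose and *Efna3* fell in sg6. *Efna2* stood at 0.908, 0.584 and 1.09 CPM in WT, at 2.61, 1.60 and 1.91 in sg5 and at 2.43, 2.92 and 2.79 in sg6 in the polyA libraries. Every clone library was above every WT library, at log2 fold changes of 1.27 (SE 0.27, edgeR adjusted p = 0.00809) and 1.69 (SE 0.27, adjusted p = 0.00178). In the rRNA-depleted libraries it rose in sg6 (log2 fold change 2.07, SE 0.42, adjusted p = 0.0154), a call lost without WT library 1 or 3 or sg6 library 1 (log2 1.81 to 2.06), and the sg5 value was 1.25 (SE 0.44, adjusted p = 0.147).

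*Efna3* stood at 2.27, 2.33 and 2.45 CPM in WT, at 2.28, 1.38 and 1.39 in sg5 and at 0.547, 0.578 and 0.586 in sg6. The sg6 libraries lay apart from all others, while sg5 overlapped with WT. The log2 fold change was −2.04 in sg6 (SE 0.24, edgeR adjusted p = 0.00028) and −0.49 in sg5 (SE 0.21, adjusted p = 0.125), and the clones differed by 1.56 (SE 0.23, adjusted p = 0.00481). With rRNA depletion sg6 fell by 1.8 on the log2 scale (SE 0.40, adjusted p = 0.0254), and this call was lost on leaving out any 1 of the WT or sg6 libraries (adjusted p = 0.0631 to 0.123). The difference between the clones there, 1.54, passed without sg5 library 1 (1.90, adjusted p = 0.0148). Exons of *Efna3* share 344 bases with the opposite-strand gene *Gm15998*, and how the counting treated strand is not given in the sources used here. *Efna1*, *Efna4* and *Efna5*, of which *Efna5* was the most abundant ephrin in WT, lay between −0.51 and −0.07 in the polyA libraries and passed in neither clone.

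**Figure D3:**
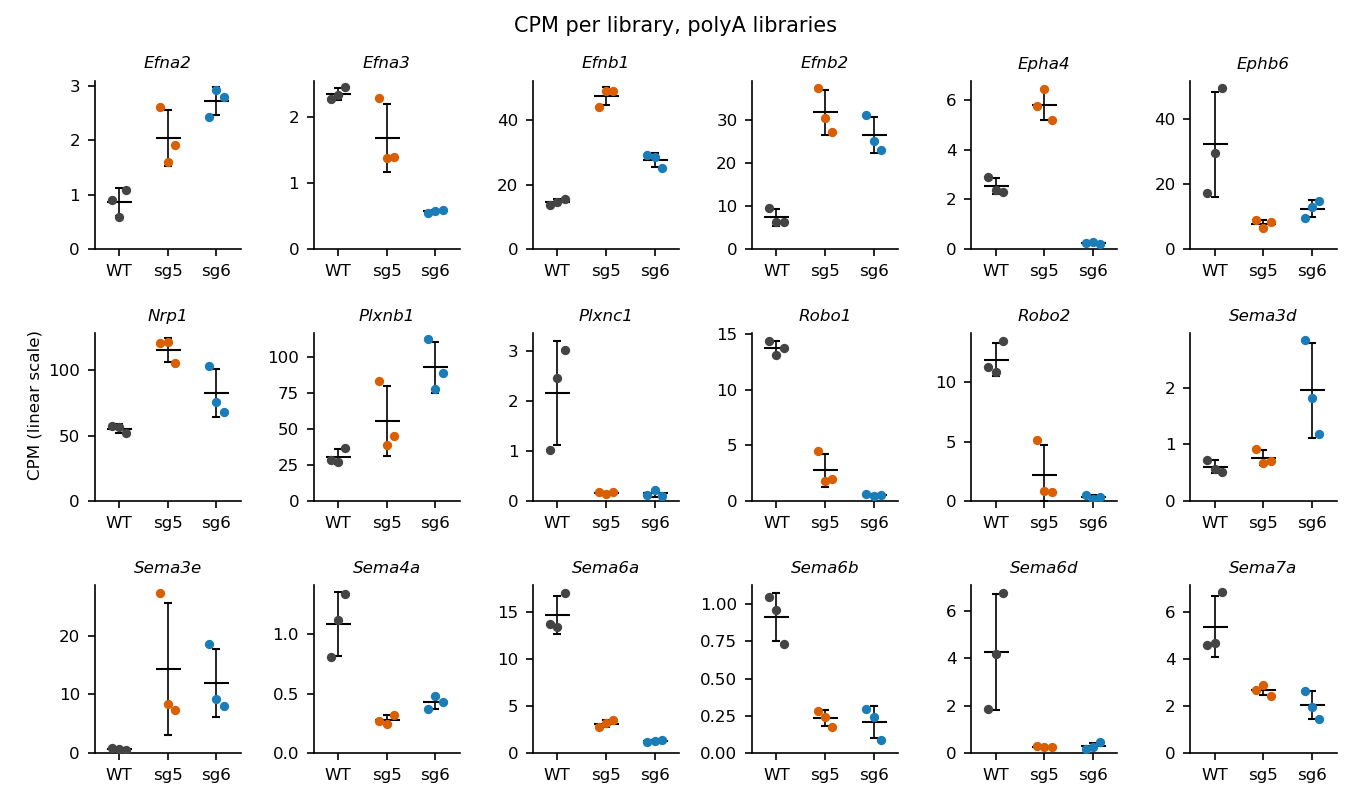
CPM in each polyA library of the 18 genes described library by library, on linear axes that start at 0; points are libraries, horizontal marks are group means and bars 1 SD, cut at 0. *Robo1*, *Sema6a* and *Sema6d* are low in both clones, *Sema3e* and *Efnb2* are high in both, and *Epha4* is high in sg5 and low in sg6.

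The class 3 semaphorins, which are secreted, rose where they changed. *Sema3e*, which binds plexin-D1 without a neuropilin and restrains vessel growth, rose more than any other gene of the families. Its polyA values were 0.873, 0.801 and 0.600 CPM in WT, 27.3, 8.37 and 7.42 in sg5, and 18.6, 9.30 and 8.04 in sg6. Every clone library was above WT, with 1 library of each clone well above its other two. For *Sema3e* the log2 fold change was 4.25 in sg5 (SE 0.61, edgeR adjusted p = 0.0011) and 3.99 in sg6 (SE 0.61, adjusted p = 0.00125), and without sg5 library 1 the sg5 value was 3.38 (adjusted p = 0.000654). After rRNA depletion it had 1, 3 and 1 counts in WT, 610, 173 and 152 in sg5, and 341, 115 and 153 in sg6. Summed counts scaled for library size were 230.0-fold above WT in sg5 (exact 95% interval for counting error 98.2 to 710.1) and 144-fold in sg6 (61.2 to 444). The fitted log2 values there were 7.68 in sg5 and 7.07 in sg6, and 8.4 and 7.8 without WT library 2. They were 6.97 without sg5 library 1 for sg5 and 6.46 without sg6 library 1 for sg6. Its receptor gene *Plxnd1* changed by 0.22 and 0.28 in the polyA libraries and passed in neither clone. With rRNA depletion *Plxnd1* changed by 1.1 in sg5, which passed without sg5 library 1 (1.54, adjusted p = 0.00724), and by 0.22 in sg6.

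*Sema3e* lies on chromosome 5 from 14025276 to 14256689 on the plus strand, 423 kb beyond *Sema3a*. The 250 bases before its start, chr5:14025026-14025275, are shown because *Sema3e* gave the largest rise.
Sema3e: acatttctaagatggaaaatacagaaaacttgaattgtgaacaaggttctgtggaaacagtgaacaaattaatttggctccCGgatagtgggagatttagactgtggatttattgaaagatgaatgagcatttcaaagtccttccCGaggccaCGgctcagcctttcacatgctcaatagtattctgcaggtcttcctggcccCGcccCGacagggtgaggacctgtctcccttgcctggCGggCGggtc
They hold 7 CG, are 48% G and C and contain GGGCGG, but neither TATAAA nor CACGTG. Neither of the 2 tested genes within 1 Mb of *Sema3e* passed in both clones.

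*Sema3d*, another secreted semaphorin of this cluster on chromosome 5, rose in sg6. It stood at 0.734, 0.572 and 0.511 CPM in WT, 0.916, 0.672 and 0.715 in sg5, and 2.84, 1.82 and 1.19 in sg6 in the polyA libraries. The sg6 libraries lay above all others and sg5 overlapped with WT. The log2 fold change in sg6 was 1.71 (SE 0.33, edgeR adjusted p = 0.00425), and in the rRNA-depleted libraries 1.82 (SE 0.41, adjusted p = 0.0267), the latter lost without WT library 1 or 2 or sg6 library 2 or 3 (log2 1.62 to 1.82, adjusted p = 0.0793 to 0.101). Between the clones the rRNA-depleted value was −1.65 for sg5 minus sg6 (adjusted p = 0.157), which passed with the replicate number as a block (−1.63, adjusted p = 0.0386). The polyA difference between the clones, −1.35 for sg5 minus sg6 (SE 0.30, adjusted p = 0.036), was lost on leaving out WT library 2, any sg5 library or sg6 library 1 or 2 (log2 −1.50 to −0.97).

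*Sema3a*, whose product repels axons and acts on bone-forming cells, stood at 17.6, 15.3 and 10.5 CPM in WT, 33.1, 47.4 and 34.8 in sg5, and 25.9, 30.7 and 19.2 in sg6 in the polyA libraries. It rose in sg5 (log2 fold change 1.41, SE 0.23, edgeR adjusted p = 0.00236) and changed by 0.81 in sg6 (SE 0.23, adjusted p = 0.0273). The rRNA-depleted libraries overlapped, with log2 values of 0.39 and 0.46 (SE 0.38 each). The other class 3 genes, *Sema3b*, *Sema3c*, *Sema3f* and *Sema3g*, passed in neither clone, with polyA log2 values between −0.50 and 0.90. *Sema3g* passed in sg5 without sg5 library 3 (1.1), and *Sema3c* differed between the clones without sg5 library 1 (−1.11 for sg5 minus sg6).

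The membrane-bound semaphorins of classes 4 to 7 fell where they changed. Of the 7 genes of classes 5 to 7, *Sema6a*, *Sema6b*, *Sema6d* and *Sema7a* fell in both clones in the polyA libraries, and the median of the 7 log2 fold changes was −1.0 in sg5 and −1.4 in sg6. *Sema6a*, which binds A-type plexins, stood at 13.7, 13.4 and 17 CPM in WT, 2.74, 3.18 and 3.52 in sg5, and 1.15, 1.29 and 1.37 in sg6. The 3 lines were fully separate. For *Sema6a* the log2 fold change was −2.22 in sg5 (SE 0.15, edgeR adjusted p = 1.83e-05) and −3.53 in sg6 (SE 0.17, adjusted p = 2.09e-06), and the clones differed by 1.31 (SE 0.16, adjusted p = 0.00139). The rRNA-depleted libraries had 47, 65 and 113 counts in WT, 11, 6 and 7 in sg5, and 2, 0 and 2 in sg6. WT was 47.7-fold above sg6 over the summed counts scaled for library size (exact 95% interval for counting error 18.4 to 177). The fitted log2 value in sg6 was −5.40, and −4.77 without sg6 library 2, and both clones passed (adjusted p = 0.00135 and 7.76e-05 by edgeR).

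*Sema6d*, a ligand of plexin-A1, stood at 1.85, 4.19 and 6.76 CPM in WT, 0.290, 0.279 and 0.284 in sg5, and 0.192, 0.273 and 0.462 in sg6 in the polyA libraries. WT varied widely and still lay above every clone library. For *Sema6d* the log2 fold change was −3.91 in sg5 (SE 0.46, edgeR adjusted p = 0.000351) and −3.81 in sg6 (SE 0.48, adjusted p = 0.000485). After rRNA depletion it had 16, 11 and 34 counts in WT, 5, 0 and 1 in sg5, and 0 in each sg6 library. Against a floor of 3 counts per library, sg6 was at least 5.51-fold lower than WT (adjusted p = 0.0172). This call was lost without WT library 1 or 3 (adjusted p = 0.0753 and 0.171), where the fitted log2 values, which are no bound, were −7.09 and −6.75. The sg5 value there was −2.98 (SE 0.91, adjusted p = 0.106).

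*Sema6b*, also a plexin-A ligand, stood at 1.05, 0.961 and 0.734 CPM in WT, 0.284, 0.240 and 0.179 in sg5, and 0.296, 0.241 and 0.0888 in sg6, at log2 fold changes of −1.95 (SE 0.33, edgeR adjusted p = 0.00285) and −2.10 (SE 0.37, adjusted p = 0.00279). *Sema7a*, a lipid-anchored semaphorin that binds plexin-C1 and integrins, stood at 4.58, 4.67 and 6.85 CPM in WT, 2.70, 2.90 and 2.44 in sg5, and 2.65, 1.98 and 1.47 in sg6. Its log2 fold change was −1.40 in sg6 (SE 0.24, adjusted p = 0.00258) and −1.002 in sg5 (SE 0.24, adjusted p = 0.0135), on the edge of the fold threshold. The sg5 call was lost without WT library 3 or sg5 library 3 (log2 −0.79 and −0.94), and with no filter on low counts. For both genes every clone library lay below every WT library. The rRNA-depleted libraries had at most 13 counts of *Sema6b*, which was not tested there, and *Sema7a* changed by −0.71 and −0.58 with overlapping libraries.

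*Sema4a*, a class 4 semaphorin best known from immune cells and the retina, stood at 0.803, 1.12 and 1.33 CPM in WT, 0.271, 0.244 and 0.321 in sg5, and 0.370, 0.482 and 0.426 in sg6 in the polyA libraries. It fell in both clones, by 1.98 on the log2 scale in sg5 (SE 0.23, edgeR adjusted p = 0.000351) and by 1.37 in sg6 (SE 0.24, adjusted p = 0.00264), and had at most 6 counts in any rRNA-depleted library. The median polyA log2 fold change of the 6 class 4 genes was 0.004 in sg5 and −0.08 in sg6. The other 5 class 4 genes passed in neither clone. Of these *Sema4c* and *Sema4b* were the most abundant in WT, at 6.75 ± 2.30 and 4.64 ± 0.525 CPM per kb. *Sema4b* changed by −0.74 and −0.91 and passed in sg6 without sg6 library 2 or 3 (log2 −1.02 and −1.04).

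Among the semaphorin receptors, *Plxnc1* fell and *Plxnb1* rose. *Plxnc1*, the receptor of Sema7a, stood at 1.01, 2.45 and 3.02 CPM in WT, 0.177, 0.140 and 0.185 in sg5, and 0.133, 0.225 and 0.107 in sg6 in the polyA libraries. Both clones were far below WT, at log2 fold changes of −3.72 (SE 0.40, edgeR adjusted p = 0.000214) and −3.81 (SE 0.44, adjusted p = 0.000288). The rRNA-depleted libraries showed a smaller difference, at 1.31, 2.25 and 2.39 CPM in WT, 0.385, 0.836 and 0.657 in sg5, and 0.603, 0.894 and 0.789 in sg6. There *Plxnc1* fell in sg5 (log2 −1.69, SE 0.38, adjusted p = 0.0215), a call lost without WT library 2 or 3 or sg5 library 1 or 3 (log2 −1.72 to −1.39), and the sg6 value of −1.38 (SE 0.36, adjusted p = 0.0649) passed without sg5 library 1 (−1.33, adjusted p = 0.044) and when the replicate number was a block (−1.36, adjusted p = 0.0181). Exons of *Plxnc1* share 115 bases with *Gm48718* on the same strand. Both the ligand *Sema7a* and its receptor *Plxnc1* were lower in both clones in the polyA libraries.

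*Plxnb1*, a receptor of Sema4d, stood at 29.0, 27.3 and 36.8 CPM in WT, 83.8, 39.1 and 45.1 in sg5, and 113, 78.1 and 89.0 in sg6 in the polyA libraries. Both clones lay above WT, with 1 sg5 library among the sg6 values. It rose in sg6 (log2 fold change 1.59, SE 0.28, edgeR adjusted p = 0.00266) and changed by 0.85 in sg5 (SE 0.27, adjusted p = 0.0467), which passed without sg5 library 2 (1.06, adjusted p = 0.0259). The clones differed, by −1.15 for sg5 minus sg6, without sg5 library 1 (adjusted p = 0.0132). With rRNA depletion it rose in both clones, by 1.58 (SE 0.34, adjusted p = 0.0186) and 1.82 (SE 0.34, adjusted p = 0.00931), and the sg5 call was lost without WT library 2 or 3 (adjusted p = 0.084 and 0.0598, log2 1.40 and 1.71). Exons of *Plxnb1* share 257 bases with the opposite-strand gene *Gm7628*.

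*Plxnb3*, a receptor of Sema5a, had polyA log2 values of 1.11 (SE 0.41, adjusted p = 0.0745) and 1.16 (SE 0.41, adjusted p = 0.0611), close to those of *Plxnb1* and short of the test by edgeR. It rose in sg5 in the rRNA-depleted libraries, at 1.49, 0.811 and 1.39 CPM in WT and 13.5, 5.68 and 2.86 in sg5 (log2 2.58, SE 0.61, adjusted p = 0.0292). That call was lost without any 1 WT library or sg5 library 1 (log2 1.81 to 2.79), and the sg6 value, 2.34, passed without sg5 library 1 or 3 or sg6 library 2 (2.37 to 2.74) and when the replicate number was a block (2.07, adjusted p = 0.00721). The rRNA-depleted sg6 value by DESeq2, 2.40, passed too (adjusted p = 0.048). In polyA, *Plxnb3* passed by edgeR in sg5 without sg5 library 2 (1.43) and in sg6 without sg5 library 1 or 2 (1.16 each). *Plxna3*, an A-type plexin, fell in sg5 in the rRNA-depleted libraries alone (log2 −1.06, SE 0.24, edgeR adjusted p = 0.022), and not without WT library 2 or 3 or sg5 library 2 or 3 (−1.02 to −0.89). *Plxnb2*, the most abundant gene of the families in WT, changed by 0.02 and 0.19 in the polyA libraries.

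Of the neuropilins, co-receptors of class 3 semaphorins and of vascular endothelial growth factor, *Nrp1* rose in sg5. Its polyA values were 57.5, 56.8 and 51.8 CPM in WT, 120.1, 121 and 105 in sg5, and 103, 75.9 and 68.1 in sg6. The lines did not overlap, sg6 lying between WT and sg5. The log2 fold change in sg5 was 1.06 (SE 0.14, edgeR adjusted p = 0.00082) and in sg6 0.57 (SE 0.14, adjusted p = 0.0149), under the fold threshold. The rRNA-depleted libraries gave 1.06 in sg5 (SE 0.18, adjusted p = 0.00403), lost without WT library 3 or sg5 library 2 (0.9998 and 0.87), and 0.40 in sg6 (SE 0.18). *Nrp2* changed by −0.18 and −0.07 in the polyA libraries and passed in neither clone.

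Unc5 receptors mediate repulsion by netrins, and 3 of the 4 were tested in the polyA libraries. *Unc5b* changed by 0.85 in each clone (SE 0.29 each, edgeR adjusted p = 0.055 and 0.051), and passed in both clones without WT library 1 (log2 1.04 each) and in sg6 without sg6 library 3 (1.1). *Unc5c* changed by −0.04 and −0.50 and *Unc5d* by 0.15 and 0.30, short of the thresholds. *Unc5d* and the Eph receptor *Epha5* were counted almost only in the polyA libraries. *Epha5* had 113 to 916 counts per polyA library and at most 4 per rRNA-depleted library, and *Unc5d* had 19 to 222 against at most 1, with no difference between the lines past the test.

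**Figure D4:**
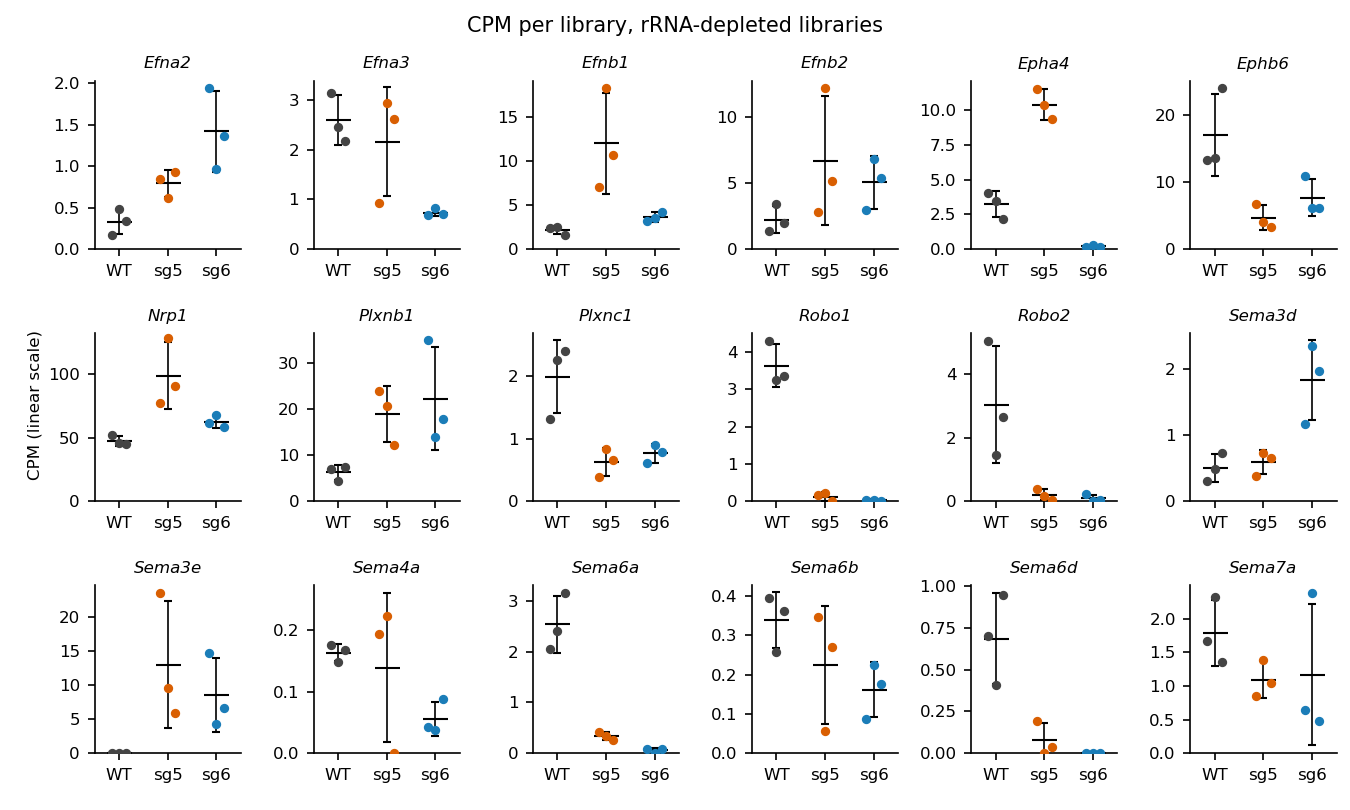
CPM in each rRNA-depleted library of the same 18 genes, on linear axes that start at 0; points are libraries, horizontal marks are group means and bars 1 SD, cut at 0. *Robo1*, *Sema6a* and *Sema6d* are low in both clones, *Sema3e* is near 0 in WT, and *Sema4a* and *Sema6b* lie under 0.5 CPM in every library.

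The 2 kinds of library share no samples, though they share the lines, so they were set side by side. Of 45 genes tested in both kinds, 35 had the same sign in sg5 and 39 in sg6. All 15 of these genes that passed in sg5 in the polyA libraries had the same sign in the rRNA-depleted libraries, and 9 also passed there. In sg6 all 14 had the same sign and 10 also passed. Pearson's r of the log2 fold changes across the 45 genes was 0.880 in sg5 and 0.926 in sg6. It is a description across genes, which are not independent replicates and share their libraries. *Robo1*, *Robo2*, *Sema3e* and *Sema6a* passed in both clones in both kinds, and *Epha4* passed in both clones in both kinds with opposite signs.

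**Figure D5:**
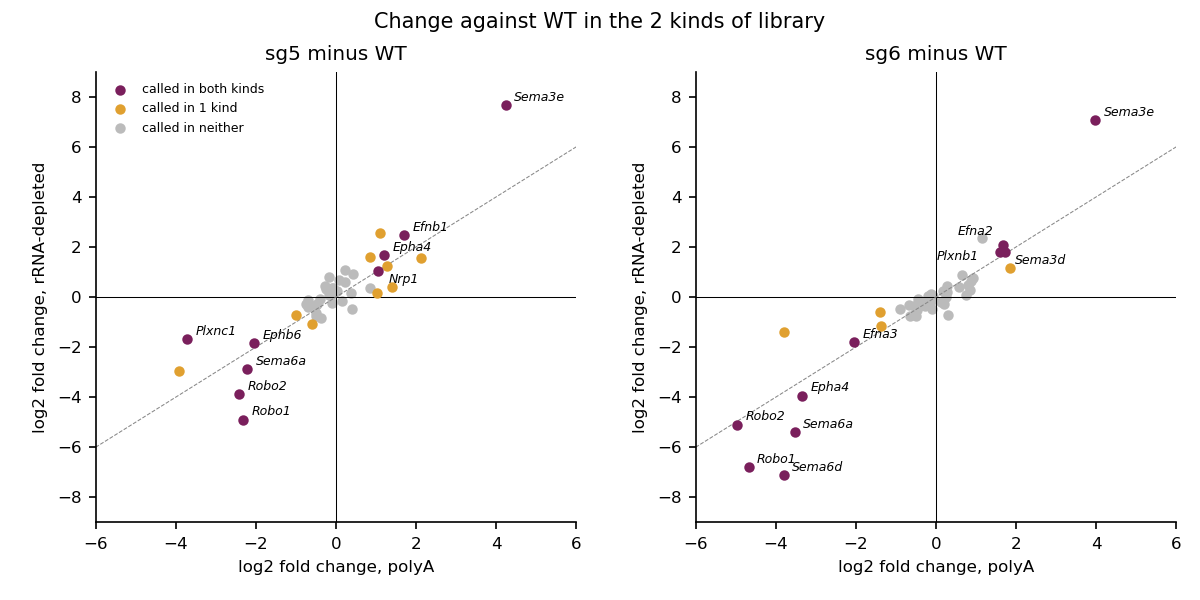
Log2 fold change in the rRNA-depleted libraries against that in the polyA libraries for the 45 genes tested in both kinds, sg5 minus WT at the left and sg6 minus WT at the right; the dashed line marks equal values. Named points passed in both kinds, 9 in sg5 and 10 in sg6, and all of them lie at the lower left or upper right.

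Other genes of the same pathways were read from lists of ligands, co-receptors and effectors, and the shares of all genes given above apply to their counts too. Of 14 tested genes for netrins and their other receptors and partners, 3 fell in sg5 and 4 in sg6 in the polyA libraries. Among these was *Flrt3*, a membrane protein that binds Unc5 receptors, with a mean of 27.2 ± 8.72 CPM for WT (SD, n = 3), 0.721 ± 0.215 for sg5 and 1.25 ± 0.725 for sg6. Its log2 fold change was −5.25 (SE 0.46, edgeR adjusted p = 6.95e-05) and −4.46 (SE 0.45, adjusted p = 0.000132). *Ntng1*, a netrin-G, fell by 2.81 and 1.74 on the log2 scale, *Draxin*, a netrin antagonist, fell by 2.03 and 1.94, and *Ntn5* fell by 1.58 in sg6. The list's median log2 fold change was −0.11 in sg5 and −0.19 in sg6.

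Of 48 tested intracellular effectors, 3 rose and 4 fell in sg5 and 2 rose and 4 fell in sg6 in the polyA libraries, at medians of 0.13 and 0.21. Of all genes tested there, 3.18% rose and 6.96% fell in sg5, and 3.64% rose and 7.54% fell in sg6. *Srgap1*, a GTPase-activating protein that acts downstream of Slit and Robo, rose by a log2 value of 1.18 in sg5 (SE 0.19, edgeR adjusted p = 0.00186) and 1.35 in sg6 (SE 0.19, adjusted p = 0.0008). *Dpysl3*, of the collapsin response mediator family, rose by 1.25 and 1.8, and its rRNA-depleted values were −0.74 in sg5 (adjusted p = 0.483) and 0.60 in sg6 (adjusted p = 0.706). The tyrosine kinase *Fes*, which binds plexins, rose in sg5 alone (2.14, SE 0.25), and differed directly between the clones. *Vav3* (−1.93 and −2.08), *Ngef*, the ephexin that binds Eph receptors (−1.73 and −1.13), *Crmp1* (−3.05 and −3.67) and *Tiam1* (−1.31 and −1.38) fell in both clones. With rRNA depletion, 6 of 45 effectors rose in sg5 and 1, *Ngef*, fell. *Vav3*, *Crmp1* and *Tiam1* thus passed in neither clone there by edgeR. In sg6, 0 of the 45 passed by edgeR, and DESeq2 called 1 lower, beside 523 of all 13303 genes tested. The unadjusted edgeR p in sg6 was below 0.05 for 12 of the 45, beside 3238 of the 13303. Of 21 tested proteases and co-receptors, *L1cam*, an adhesion molecule that associates with neuropilin-1, rose in both clones in the polyA libraries, with means of 163 ± 65.1 CPM for WT, 366 ± 65.0 for sg5 and 518 ± 124 for sg6, and also in both clones in the rRNA-depleted libraries, while *Mst1r* fell in sg5 in the polyA libraries (log2 −2.23). The lists were written with earlier results of these data known, and their counts are descriptions.

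Since these families were first described in axon guidance, neuronal and glial markers were measured beside them. The summed level of 10 neuronal markers reached 64.4 to 84.2 CPM for WT, 114 to 169 for sg5 and 180.2 to 225 for sg6 in the polyA libraries. It was made up mostly of *Map2*, at 63.7 ± 9.69, 137 ± 27.3 and 155 ± 24.7 CPM, and in sg6 of *Stmn2*, at 42.0 ± 16.6 against 0.183 ± 0.0797 in WT. Of the other neuronal markers, *Syt1* fell in both clones, at 5.02 ± 0.965 CPM in WT and at most 0.0355 in any clone library, and *Rbfox3*, *Elavl4* and *Nefl* were at most 0.0349 CPM in every polyA library. With rRNA depletion the neuronal sum ran from 59.4 to 73.7 CPM for WT, 55.4 to 137 for sg5 and 98.8 to 200.3 for sg6. There *Nefl* reached 1.81 CPM and *Snap25* 1.62 CPM in an sg5 library, against at most 0.0369 and 0.0438 in WT. The summed level of 10 Schwann cell and glial markers reached 143 to 159.9 CPM for WT, 65.0 to 133 for sg5 and 81.4 to 124 for sg6. *Cdh19*, 1 of them, averaged 58.1 ± 5.99 CPM for WT, 0.646 ± 0.217 for sg5 and 0.580 ± 0.318 for sg6. *Foxd3* and *Olig2* were at 0 in every polyA library. The same glial sum ran from 90.6 to 165 CPM for WT, 109 to 349 for sg5 and 46.5 to 264 for sg6 with rRNA depletion. There *Cdh19* fell in both clones, *Erbb3* fell in sg6 and *Mbp* rose in sg5. For WT, sg5 and sg6, *S100b* averaged 63.2 ± 22.8, 166 ± 109 and 112 ± 114 CPM with rRNA depletion. *Gfap* averaged 1.16 ± 0.844, 12.4 ± 13.3 and 2.49 ± 3.49 CPM, and neither gene passed in a clone there. The part of these neuronal and glial markers was not tested either.

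Promoters were read as a feature that the choice by symbol did not use. For 56 of the 64 genes RefSeq held 72 starts, and the 250 bases before them had a median of 15.5 CG and 64.4% G and C, against 6 CG and 52.4% over all 32851 promoters. They ranged from 0 to 46 CG, and 57 of the 72 held more CG than the median of all promoters. GGGCGG occurred on either strand in 70.8% of them, against 32.7% of all promoters, TATAAA in 2.78% against 12.4%, and CACGTG in 5.56% against 6.02%. The 15 starts of 8 genes that fell in both clones in the polyA libraries had a median of 9 CG, and the 3 starts of the genes that rose in both had 25. The ranges overlapped, from 2 CG (*Sema4a*) to 27 (*Ephb6*) for the former and from 7 (*Sema3e*) to 27 (*Efnb2*) for the latter. Genes with several starts enter more than once. These are counts of letters in a fixed window, with no test. Of the 9 genes that fell in both clones in the polyA libraries, *Robo1* and *Robo2* were the 1 pair within 1 Mb of each other. In all, 16 of the 64 genes share exon bases with another annotated gene, 13 of them with one on the opposite strand.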

How the data were processed

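RNA was measured in 18 libraries of 3 lines of C3H/10T1/2 cells, 9 polyA-selected and 9 rRNA-depleted. For the polyA libraries the authors deposited expected counts per gene, estimated with Salmon (0.8.2 per the submitters' processing notes) on mm10 and summed with tximport, and these were whole numbers as deposited. For the rRNA-depleted libraries they deposited counts of reads per gene and transposable element locus, made with STAR (2.27.10a per the same notes) with multiple alignments kept, and TElocal. The strand setting is not given in the sources used here. Expected counts of a gene depend on how reads were divided among its relatives, and counts without strand can hold reads of an overlapping gene.

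Each kind was fitted alone, over its whole table and all 9 libraries, with edgeR 4.0.16 in R 4.3.3. Low counts were filtered with filterByExpr (minimum count 10, minimum total 15), TMM factors were used, and glmQLFit and glmQLFTest gave p-values, adjusted by Benjamini-Hochberg over all features tested, which in the rRNA-depleted table were 56086 genes and loci. A gene was called at an adjusted p below 0.05 and a log2 fold change beyond 1. CPM used the TMM factors, and per-length levels the merged exons of GENCODE on GRCm38. Of 24100 gene identifiers, 24045 matched a symbol. Promoters and the neighbours within 1 Mb came from RefSeq on GRCm38.p6. Intervals and the floor of 3 counts cover counting error only.

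Values in every library were given for the 18 genes called in both clones in 1 direction, called between the clones, called in 1 clone in both kinds, or nearly absent from 1 group (at most 3 counts) and counted at 10 or more in another. *Sema3a*, *Slit2*, *Plxnb3*, *Plxna3* and the uncalled genes named, and the printed promoters, were chosen after their values were seen. The genes and lists were chosen with earlier results of these data known. The fits were also run on simulated counts with known changes, drawn without any effect of replicate number. The outcome of that run is not given here, and it does not cover libraries that deviate together. Over the comparisons in which same-number libraries deviated together (every correlation over 0.1), the block value is printed where it changes a call. These were sg6 against WT in the rRNA-depleted libraries (0.114 to 0.544) and sg5 against sg6 in both kinds (0.175 to 0.638 rRNA-depleted, 0.277 to 0.373 polyA), a hint from the data and not from the labels. Alternatives were DESeq2 1.42.0, median-of-ratios factors, other filters, other thresholds, the compared groups alone, the replicate number as a block, thinned polyA counts, gene rows alone and leaving out each library.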

Additional observations from a re-analysis of the deposited data

Results flagged for a closer look

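A difference between the clones past the test is listed here as log2 of sg5 over sg6, with 3 libraries in each clone. In the polyA libraries *Epha4* was higher in sg5 by 4.55, *Robo1* by 2.37, *Efna3* by 1.56 and *Sema6a* by 1.31, while *Sema3d* was lower in sg5 (−1.35). In the rRNA-depleted libraries *Epha4* was higher in sg5 by 5.63 and *Efnb1* by 1.72. Each clone came from a different guide RNA, so guide and clone cannot be told apart. Groups of 3 libraries were not tested for single libraries that stand apart.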

How the results depend on the processing

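Of 58 calls of the 18 genes shown library by library, 31 passed under every alternative, 27 failed under at least 1, and 0 changed sign. Tested against a log2 fold change of 1, the polyA calls numbered 3 higher in sg5, 2 higher in sg6, 1 between the clones and 4 lower in both, and the rRNA-depleted calls 2 higher and 3 lower in sg5, 1 higher in sg6, 1 between the clones and 1 higher in both. Of all 15480 polyA genes, 173 were then higher in sg5 and 226 in sg6, and 69 were higher and 72 lower in sg5 than sg6. Of all 13303 rRNA-depleted genes, 114 were higher and 310 lower in sg5, 110 higher in sg6, and 25 higher and 33 lower in sg5 than sg6. With the adjusted p alone, 11 of the 55 polyA genes were higher in sg6, beside 2491 of all 15480 genes tested. Then 8 differed between the clones, beside 327 of all genes higher and 414 lower in sg5 than sg6, and 8 were higher in both. With at least 10 counts in every rRNA-depleted library, 3 were higher and 3 lower in sg5, 1 higher and 2 lower in sg6, 1 differed between the clones, 1 was higher in both and 1 lower in both, with fewer genes tested. Of all 11816 genes tested with that filter, 267 were higher and 296 lower in sg5, and 168 higher and 200 lower in sg6. Between the clones, 40 of them were higher and 71 lower in sg5. With the compared groups alone, 1 rRNA-depleted gene differed between the clones and 6 were lower in both, and *Robo2* lost its polyA call in sg5. With no filter, 4 rRNA-depleted genes were higher in both clones, and with gene rows alone 5 were lower in both. Of all 18885 genes with no filter, 624 were higher in sg5 and 397 in sg6. Of all 13289 with gene rows alone, 680 were lower in sg5 and 573 in sg6. Counts in both clones were not made over all genes under the alternatives. The cause of these differences was not tested.

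Leaving out 1 library gave, in the polyA libraries, 7 to 9 higher and 7 to 9 lower in sg5, 5 to 7 higher and 10 to 13 lower in sg6, 4 to 6 between the clones, and 3 to 5 higher and 6 to 9 lower in both. In the rRNA-depleted libraries it gave 3 to 8 higher and 4 to 6 lower in sg5, 2 to 5 higher and 4 to 8 lower in sg6, 1 to 3 between the clones, and 1 to 3 higher and 3 to 4 lower in both. Over all polyA genes, 370 to 561 were then higher and 933 to 1260 lower in sg5. In sg6, 465 to 661 were higher and 1021 to 1342 lower. Over all rRNA-depleted genes, 207 to 535 were higher and 436 to 589 lower in sg5, and 170 to 362 higher and 328 to 559 lower in sg6. For sg5 against WT in both kinds and sg6 against WT in the polyA libraries, same-number pairs did not all correlate above 0.1 (lowest 0.0257, −0.229 and 0.0983), so the numbers were not taken to pair them. In all, 9 of 9 polyA and 6 of 9 rRNA-depleted libraries correlated best with their own number. With the replicate block, 4 rRNA-depleted genes were higher and 5 lower in both clones, and 0 of the 58 calls were lost. *Efnb2* in sg5 (rRNA-depleted, 1.47, edgeR adjusted p = 0.00284) and *Plxnb3* in sg6 (polyA, 1.09, adjusted p = 0.00674) passed with it. In the rRNA-depleted libraries 10 genes tested in the polyA libraries had too few counts, and polyA counts thinned to 27544833 per library still gave 8 higher and 9 lower in sg5 and 5 higher and 11 lower in sg6. Of all 14173 genes tested on the thinned counts, 415 were higher and 841 lower in sg5, and 473 higher and 935 lower in sg6.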
